A study of Mus musculus with 30 samples.

Results

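Histone cluster genes were followed in polyadenylated RNA of cultured mouse osteoclasts. The members are the protein-coding genes whose symbols begin with Hist1h, Hist2h, Hist3h or Hist4h in the annotation of that period, and 65 of the 50686 genes counted met this rule. They encode linker histone H1 (6 genes) and the core histones H2A (18), H2B (16), H3 (12) and H4 (13). Of these, 52 lie in the Hist1 cluster on chromosome 13, 10 in Hist2 on chromosome 3, 2 in Hist3 on chromosome 11 and 1 in Hist4 on chromosome 6. Osteoclasts, the bone-resorbing cells formed by fusion of macrophage-lineage precursors, were grown from macrophages that had been derived from bone marrow. The donors were C57BL/6J mice, and the medium held 10% FBS, M-CSF (25 ng/ml) and RANKL (100 ng/ml). The 30 libraries form 10 groups of 3. Wild-type (WT) cultures of 6-month and 20-month donors were taken after 2 days, and WT cultures of 1-month, 6-month and 20-month donors once large multinucleated cells had formed. Multinucleated cultures of donors that lack Terc, the RNA template of telomerase (Terc-/-, KO), came from 1-month and 6-month mice. A further group each of 1-month and 6-month KO cultures carries the number 519 in its titles (set 519), and a further group of 1-month WT cultures a tag beginning with D1 (set D1). The labels explain neither tag, and do not say whether replicates are separate animals or cultures, so p-values measure only the spread between these libraries, which may be technical.

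Most histone cluster genes are transcribed mainly while DNA is replicated, when new chromatin needs histones in bulk. Their mRNAs normally end in a conserved stem-loop that is bound by the protein SLBP, and carry no poly(A) tail, so a library selected with oligo(dT) should hold few of them. Some of these genes also give polyadenylated mRNA from a poly(A) signal further downstream or after splicing, a form known from differentiated cells, while the replication-independent variants (such as H3f3a, H3f3b and H2afz) are always polyadenylated.

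Depth was lower in set 519, at 4269798 to 12987993 counts a library, than in the remaining groups, at 13182063 to 25147975. Terc gave 5 counts in the 18 WT libraries together and 0 in the 12 KO libraries, so the genotype could not be read from these data. Set D1 had 13791 to 17522 Xist counts a library, against at most 9 elsewhere, and 0 counts of the Y-linked Ddx3y, so comparisons with set D1 also compare sexes. The defining osteoclast genes were present in every library but at very different levels: Ctsk ranged from 56.8 to 11621 CPM and Acp5 from 81.3 to 8732 CPM (counts per 1000000, scaled by TMM, as are all CPM values here). Sums of marker lists for other cells ranged over the libraries from 517 to 6287 CPM (10 stromal genes), 1.5 to 77.9 (10 neutrophil genes), 14.1 to 276 (8 erythroid and platelet genes, with Hbb-bt at 0 counts throughout) and 0.966 to 5.05 (10 lymphocyte genes). In bulk RNA, fewer cells of a type and less RNA per cell cannot be told apart.

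The stem-loops are shown because they divide the members by how their mRNA can end. A stem-loop of 16 bases (a stem of 6 base pairs and a loop of 4 bases) was found after the stop codon in an annotated transcript of 44 of the 65 members, between 21 and 58 bases past the stop codon (median 31.5). The sequences are from GENCODE M21 transcripts (GRCm38), 5′ to 3′, with the stem-loop in capitals and 5 flanking bases on each side.
Hist1h1c: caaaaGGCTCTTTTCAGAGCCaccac
Hist1h2be: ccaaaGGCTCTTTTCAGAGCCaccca
Hist1h2bg: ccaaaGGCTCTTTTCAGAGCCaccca
Hist3h2a: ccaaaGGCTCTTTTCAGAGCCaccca
Hist2h3c2: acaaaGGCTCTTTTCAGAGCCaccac
Hist1h4h: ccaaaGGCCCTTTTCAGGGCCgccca
Hist1h4i: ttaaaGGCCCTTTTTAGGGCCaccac
Hist2h4: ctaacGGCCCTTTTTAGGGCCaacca
The form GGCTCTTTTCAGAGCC was shared by 24 members of types H1, H2A, H2B and H3. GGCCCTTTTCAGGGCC was found in 7 members, all H4, and the form of Hist1h4i, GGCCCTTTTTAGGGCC, in 1 other gene, the H4 gene Hist2h4. The stem-loop of Hist1h1c lies at chr13:23739512-23739527 (plus strand), that of Hist1h4i at chr13:22040966-22040981 (minus strand), that of Hist2h3c2 at chr3:96238485-96238500 (minus strand) and that of Hist3h2a at chr11:58955172-58955187 (plus strand). All 4 lie in the 3′ UTR of genes annotated with 1 exon, and other genes overlap 33% of that of Hist3h2a.

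In 14 members the counted gene ran more than 100 bases past the stem-loop: 840 bases in Hist1h1c, 330 in Hist1h4i, 377 in Hist2h3c2, 1643 in Hist3h2a and 1789 in Hist1h2be. Of these 14, 11 had a poly(A) signal (AATAAA or ATTAAA) in the last 40 bases of an annotated transcript. Hist2h3c2 had none. In 30 members the gene ended within 100 bases of the stem-loop, and 3 of those had such a signal. No stem-loop matched in the other 21, but 15 of them were annotated with at most 2 bases after the stop codon, so the absence says nothing about their mRNA. The remainder held 2 of the most abundant members. Hist1h2bc (chromosome 13, 23684199-23692488, plus strand, 736 bp of exon) is spliced: its exon junction lies 9 bases after the stop codon and the intron is 7554 bases long, so what lies directly downstream of the coding sequence is not in the transcript. The annotated transcript of Hist1h2bc had no poly(A) signal in its last 40 bases. Hist2h2be (chromosome 3, 96221119-96223738, plus strand, 2620 bp) has 2192 bases after the stop codon without a match, and a poly(A) signal.

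Linker histone and H2B genes made up most of the signal. The members drew 100068 counts in all, of which H2B genes held 46.6% and H1 genes 42.6%, H4 genes 5.82%, H2A genes 2.73% and H3 genes 2.26%. The 3 most abundant genes held 84.7% of the counts. These were Hist1h1c, an H1 gene, with 41534 counts, and the H2B genes Hist1h2bc, with 28770, and Hist2h2be, with 14424. Per length the order was different. Averaged over the 30 libraries, Hist1h2bc stood at 81.1 RPKM (the CPM value divided by the exon length in kilobases), Hist1h1c at 55.5 and Hist2h2be at 10.7. The H4 gene Hist1h4i followed at 8.49 RPKM, then Hist1h2bg (H2B) at 6.44, Hist1h4h (H4) at 4.24, Hist2h3c2 (H3) at 2.70, Hist1h4n (H4) at 2.18, Hist1h4m (H4) at 2.17 and Hist3h2a (H2A) at 1.68. Hist1h2be, whose 1329 counts spread over a 4374 bp gene model, reached 0.600 RPKM.

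The 18 members that run more than 100 bases past the stem-loop, are spliced, or exceed 750 bp without a match held 92.8% of the counts. This share came from few genes: their median level was 0.270 RPKM, against 0.222 for the other 47 members. Hist1h2bg and Hist1h4h, both among the 47, end 26 and 49 bases past their stem-loops and still ranked among the highest per length. However, Hist1h4h has a poly(A) signal in its last 40 bases, and Hist1h2bg is 618 bases long in GENCODE M21 against 477 as counted. The annotation limits this comparison, since 14 members were more than 100 bases longer in the later GENCODE M21 models (Hist1h2bc 1156 bases, Hist1h1e 1930 against 748), and reads beyond the older ends were not counted.

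At the other end, 8 members had 0 counts in all 30 libraries, which allows up to 3 counts each over all libraries (counting error only). For 5 of them (Hist2h2aa1, Hist2h2aa2, Hist2h2bb, Hist2h3b and Hist2h3c1) no stretch of 50 bases was unique among annotated transcripts and the exons were wholly overlapped by another gene, so their 0 is uninformative. The remaining ones were Hist1h2ap, with 6.9% of its 50-base stretches unique and thus hardly more informative, and Hist1h2aa and Hist1h2ba, with 76.2% and 61.8% unique. A further 34 members had 2 to 137 counts in all (median 43) and did not pass the filter on low counts. The filter kept 23 members: 4 of H1, 3 of H2A, 5 of H2B, 4 of H3 and 7 of H4. A member kept only through the group in which it is high had to differ between groups, so counts over the 23 describe those genes alone. Hist1h4n and Hist1h1e reached the level the filter asks for in none of the 2-day, unprefixed KO or unprefixed 1-month WT libraries. The same was true of Hist1h2ad, Hist1h4m, Hist2h4, Hist1h3i, Hist1h2bn and Hist4h4. Calls of these members against those groups are descriptions, as are their differences between effects that use those groups. The counts of members called below include such calls. Near-identical copies affect the counts of others: fewer than 50% of 50-base stretches were unique in 34 members, among them Hist2h3c2 (36.5%), Hist1h2ad (32.9%), Hist1h4n (14.4%) and Hist1h4m (10.2%), and levels of these are uncertain.

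Most H2A and H2B genes stand in head-to-head pairs that share 1 start region, and the members of 2 pairs differed widely in these libraries. Of the 12 pairs, the widest differences were those with the abundant H2B genes. Hist1h2bc stood at 81.1 RPKM and its neighbour Hist1h2ac at 0.516 (118 counts). Hist2h2be stood at 10.7 RPKM and Hist2h2ac at 0.0641 (18 counts). The ratios of RPKM were 157 and 167. Of 50-base stretches, 45% were unique in Hist2h2ac and 100% in Hist2h2be, so the second ratio is uncertain. In 7 of the remaining pairs the ratio lay between 0.527 and 5.55, and for Hist1h2bf over Hist1h2ad it was 0.300. It could not be formed for the last 2, whose H2A gene had 0 counts. The H2A genes are partly overlapped by other genes (27.1% to 35.9% of their exons), and Hist1h2ac grew from 476 to 2482 bases in the later annotation, so its level here is of the short form alone.

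The start regions shared by these 2 pairs are printed because 1 stretch of DNA serves both genes of each. They run from the start of the H2A gene to that of the H2B gene on the plus strand (RefSeq, GRCm38.p6), with CCAAT boxes and the octamer ATGCAAAT in capitals in either orientation.
Hist1h2ac-Hist1h2bc, chr13:23683960-23684198: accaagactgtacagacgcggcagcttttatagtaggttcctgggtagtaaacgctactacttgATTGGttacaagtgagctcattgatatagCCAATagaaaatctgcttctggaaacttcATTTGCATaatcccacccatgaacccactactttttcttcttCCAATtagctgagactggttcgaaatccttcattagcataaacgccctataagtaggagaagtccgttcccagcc
Hist2h2ac-Hist2h2be, chr3:96220881-96221071: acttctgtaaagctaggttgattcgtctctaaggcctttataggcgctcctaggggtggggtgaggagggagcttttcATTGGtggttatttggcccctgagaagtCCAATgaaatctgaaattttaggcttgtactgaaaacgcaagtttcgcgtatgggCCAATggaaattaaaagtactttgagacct
Each holds 3 CCAAT boxes and 1 TATAAA on either strand. The first holds 1 octamer, and the second none, although an octamer (ATTTGCAT) follows directly at chr3:96221073-96221080, between the RefSeq start of Hist2h2be and its start in the counted annotation. Promoter windows (250 bases before to 50 after the start) were available for 60 members. The octamer, searched on both strands, was in 12 of them (20%) against 1.74% of all 32851 windows, in 7 of 18 H2A and 5 of 14 H2B windows and in no other type. CCAAT was in 51 (85%, against 37.4%), including every window of H1, H2A, H2B and H3 but 3 of 12 of H4. TATAAA was in 35 (58.3%, against 13.6%). Windows of paired genes overlap, and a match of letters is not a bound site.

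Across the 10 groups the summed level of the 65 members varied from 94.1 to 368 CPM by library. The group order by mean, each with its SD and n = 3, was as follows. Lowest were 20-month WT at 2 days (95 ± 0.768 CPM), 6-month KO (107 ± 3.06), 6-month WT at 2 days (115 ± 3.54) and multinucleated 1-month WT (118 ± 6.38). Then came 1-month KO (167 ± 10.3), multinucleated 6-month WT (252 ± 10.7), 1-month KO of set 519 (276 ± 22.7) and multinucleated 20-month WT (280 ± 7.10). Highest were 6-month KO of set 519 (297 ± 7.61) and set D1 (353 ± 13.1). Libraries overlapped between 6-month WT at 2 days and 1-month WT, between multinucleated 6-month WT and 1-month KO of set 519, and between the latter and 20-month WT. Other neighbours in this order did not overlap.

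**Figure D1:**
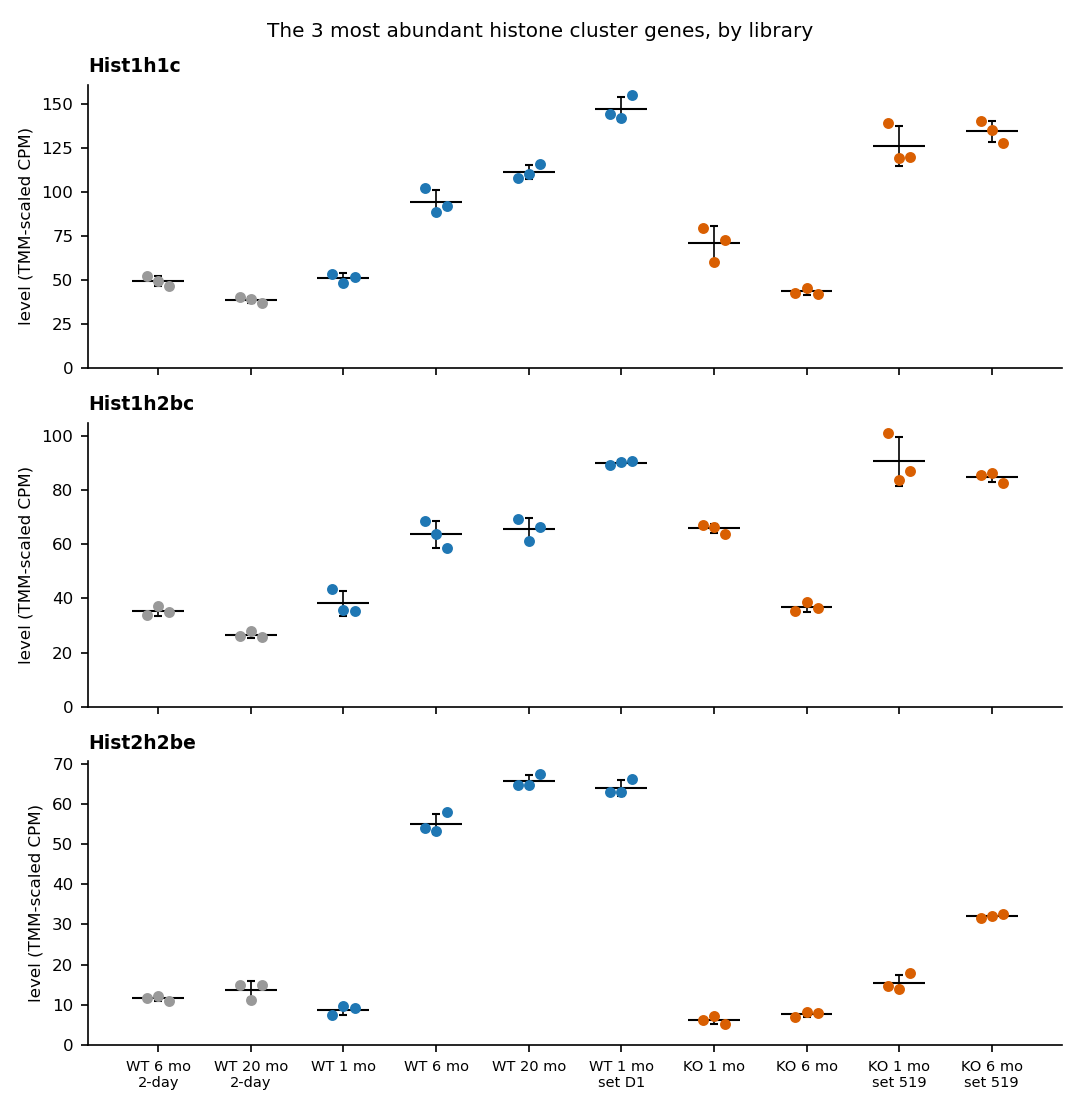
Levels of Hist1h1c, Hist1h2bc and Hist2h2be (TMM-scaled CPM) in each library of the 10 groups; lines are means with SD, grey marks 2-day cultures, blue multinucleated WT and orange multinucleated KO. The means of Hist1h1c run from 38.8 to 147 CPM and those of Hist2h2be from 6.22 to 65.7.

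The 3 leading genes held 82.7% to 86.5% of the summed level in the group means, but Hist2h2be did not keep a fixed share. It made up 3.74% of the sum in 1-month KO, 7.17% in 6-month KO and 7.50% in 1-month WT. Its share was 21.8% in multinucleated 6-month WT and 23.4% in 20-month WT. The means of Hist2h2be spanned 10.6-fold between groups, those of Hist1h1c 3.78-fold and those of Hist1h2bc 3.41-fold. The H3 gene Hist2h3c2 spanned 23.9-fold (0.341 to 8.14 CPM), while the H4 gene Hist1h4i spanned 2.65-fold (4.09 to 10.8 CPM). In the test of any difference across groups, 21 of the 23 tested members passed (edgeR quasi-likelihood F test, Benjamini-Hochberg adjusted p under 0.05), where 94% of all 15310 tested genes did. Hist1h4k and Hist1h2bn did not pass.

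The groups split by the sum of the members were also split by replication genes. In the 5 groups with the lower member sums (at most 177 CPM in any library), the summed S phase and replication list of 46 genes lay between 3801 and 4870 CPM. In the 5 groups with the higher member sums (at least 243 CPM), it lay between 1016 and 2839 CPM. The 13 osteoclast markers summed to 2074 to 5810 CPM in the first 5 groups and 9087 to 50103 CPM in the others. The groups differ in age, genotype, stage and set at once, so these ranges describe the cultures and were not tested.

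**Figure D2:**
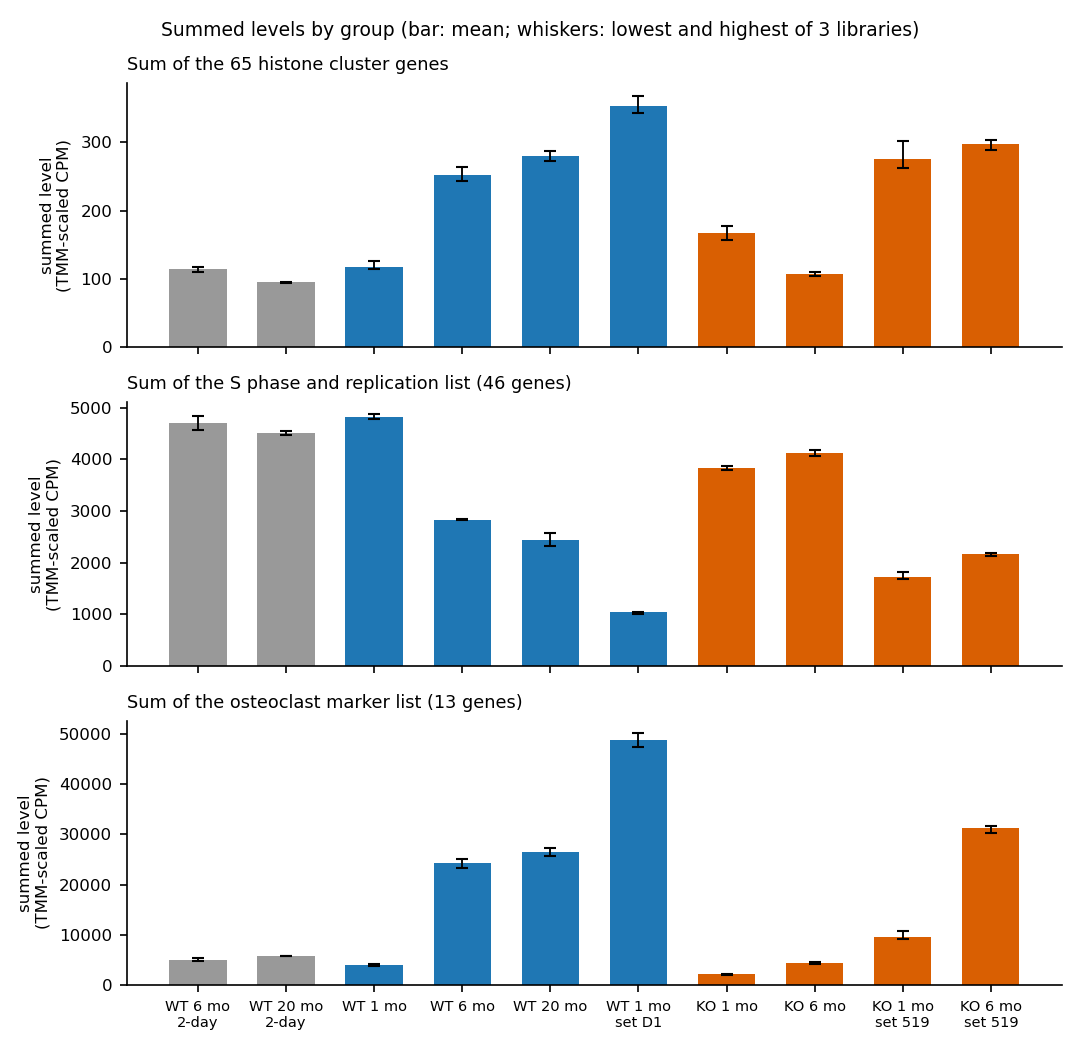
Summed TMM-scaled CPM of the 65 members, of the S phase and replication list and of the osteoclast marker list in each group; bars are means and whiskers the lowest and highest of 3 libraries. The 5 groups with member sums of at least 243 CPM have the 5 lowest S phase sums.

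The comparison of multinucleated with 2-day cultures asked how osteoclast formation changes expression. At 6 months, histone cluster genes of all types rose. Hist2h2be lay at 11.7, 12.2 and 11.0 CPM at 2 days and at 53.9, 53.2 and 57.9 CPM in multinucleated cultures. The ranges were far apart, a 4.74-fold rise (log2 fold change 2.24 ± 0.09 SE, edgeR adjusted p = 2.7e-20). Hist2h3c2, an H3 gene, went from 0.677, 0.457 and 0.304 CPM to 4.38, 4.77 and 4.5 CPM. Its groups did not overlap either, and the rise was 9.47-fold (3.24 ± 0.28, adjusted p = 7.4e-12). The H4 gene Hist1h4h rose 5.74-fold (2.52 ± 0.35, adjusted p = 2.1e-07), from 0.451, 0.400 and 0.507 CPM to 3.09, 2.30 and 2.56 CPM. The linker histone Hist1h1c lay at 52.6, 49.5 and 46.5 CPM and then at 102, 88.9 and 92.1 CPM, a 1.90-fold rise (0.93 ± 0.08, adjusted p = 1.7e-12), and Hist1h2bc rose 1.80-fold (0.85 ± 0.07, adjusted p = 8.1e-12). Libraries of the 2 stages overlapped for neither gene, although their folds were smaller. Hist1h4i rose 1.46-fold (0.55 ± 0.18, adjusted p = 0.010), a call that was lost without 2-day replicate 4.

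Of the 23 tested members 17 rose and 1 fell at 6 months, where 50.8% of all genes changed, 23.4% upward and 27.4% downward. The median log2 fold change was 1.49, against -0.01 over all genes. By type, 3 of 4 H1, 2 of 3 H2A, 4 of 5 H2B, 3 of 4 H3 and 5 of 7 H4 members rose. The 1 called lower was the H3 gene Hist1h3b, at 0.959, 0.743 and 1.47 CPM at 2 days and 0.233, 0.262 and 0.387 CPM in multinucleated cultures (3.52-fold lower, -1.82 ± 0.48, adjusted p = 0.0019). Outside these 2-day libraries it reached at most 0.691 CPM, so it passed the filter on low counts through this group, had to be lower elsewhere, and its call is a description. Of its 50-base stretches 39.6% were unique. Hist1h4n was kept through the multinucleated groups in which it is high, so its upward call is likewise a description. The same holds for calls of the other members named with it for the filter.

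At 20 months 14 of the 23 rose and none fell, where 52.3% of all genes changed, 25.4% upward and 26.9% downward (median 1.16 for members, 0.00 for all genes). Hist2h2be rose 4.80-fold (2.26 ± 0.09, adjusted p = 3.2e-20), from 15.0, 11.3 and 14.9 CPM to 64.8, 64.8 and 67.5 CPM. Hist1h1c rose 2.87-fold (1.52 ± 0.08, adjusted p = 1.5e-17), from 40.2, 39.4 and 36.8 CPM to 108, 110 and 116 CPM. Hist2h3c2 rose 11.6-fold (3.53 ± 0.31) and the linker histone Hist1h1e 11.5-fold (3.52 ± 0.51, adjusted p = 4.5e-07), from 0.0919 ± 0.0522 to 1.16 ± 0.0885 CPM. Hist1h1e began at only a few counts a library, so its fold is imprecise. It passed the filter through multinucleated groups alone, so its upward call is a description. Hist1h3b, at 0.178 ± 0.154 CPM at 2 days, was not called at this age. The call for Hist1h2bg (1.73-fold higher, 0.79 ± 0.25) was lost without 2-day replicate 1.

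Replication genes went the other way. All 46 tested genes of the S phase list fell at both ages (median log2 -0.79 at 6 months and -0.92 at 20 months), among them Pcna, the replication clamp, from 359 ± 16.7 to 216 ± 9.56 CPM at 6 months (1.66-fold lower, -0.73 ± 0.06). Slbp, which binds the stem-loop, fell 1.48-fold at 6 months (-0.57 ± 0.07, edgeR adjusted p = 5.0e-08), from 58.5 ± 3.69 to 39.4 ± 2.98 CPM, and 1.76-fold at 20 months (-0.82 ± 0.07). All 13 osteoclast markers rose at both ages. Stromal markers differed as well, with sums of 6176 to 6287 CPM at 2 days and 1536 to 2002 CPM in multinucleated cultures at 6 months (8 of 10 lower, 1 higher), and of 3963 to 4221 and 3019 to 3439 CPM at 20 months (5 lower, 2 higher). Erythroid and platelet sums were 73.1 to 121 CPM at 2 days and 17.8 to 22.2 CPM in multinucleated cultures at 6 months, and 29.2 to 35.3 and 14.1 to 17.4 CPM at 20 months. The part of any of these in the histone result was not tested.

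The comparison of KO with WT multinucleated cultures asked what loss of Terc does. At 1 month the leading Hist1 genes were higher in KO and Hist2h2be was lower. Hist1h2bc lay at 43.6, 35.6 and 35.2 CPM in WT and 67.2, 66.4 and 63.8 CPM in KO, a 1.73-fold rise without overlap (0.79 ± 0.07, edgeR adjusted p = 9.0e-11). Hist1h1c rose 1.39-fold (0.47 ± 0.08, adjusted p = 4.6e-06), from 51.2 ± 2.56 to 70.9 ± 9.78 CPM. Hist2h2be fell 1.43-fold (-0.52 ± 0.12, adjusted p = 6.6e-04), from 7.44, 9.82 and 9.17 CPM to 6.13, 7.33 and 5.19 CPM. In its case the ranges nearly met. The H3 gene Hist1h3d rose 2.43-fold (1.28 ± 0.36). Of the 23, 7 rose and 1 fell, where 41.4% of all genes changed, 20.7% upward and 20.8% downward (median 0.36 for members, -0.00 for all genes). This count depended on single libraries and settings: it was 4 without WT replicate 4, 4 with a fit of the compared groups alone and 5 with library totals in place of TMM. Hist1h4h, called 2.26-fold higher, lost its call without WT replicate 4. Hist1h2bg (1.5-fold higher) lost it without WT replicate 1 or 4 or KO replicate 2 or 4, and Hist3h2a (1.51-fold higher) without WT replicate 3 or 4 or KO replicate 1.

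At 6 months members were lower in KO. Hist2h2be lay at 53.9, 53.2 and 57.9 CPM in WT and 6.85, 8.14 and 7.96 CPM in KO, a 7.17-fold fall (-2.84 ± 0.10, edgeR adjusted p = 6.4e-23). No library of 1 group came near the other. Hist2h3c2 fell 6.63-fold (-2.73 ± 0.25, adjusted p = 2.0e-11), from 4.55 ± 0.199 to 0.677 ± 0.280 CPM, and the H2B gene Hist1h2be 5.05-fold (-2.34 ± 0.26), from 4.79 ± 0.637 to 0.946 ± 0.0925 CPM. Hist1h4n fell 10.5-fold (-3.39 ± 0.38, adjusted p = 1.9e-09), from 1.75, 1.73 and 2.27 CPM to 0.138, 0.174 and 0.219 CPM, with the reservation that copies share most of its sequence. Hist1h1c fell 2.16-fold (-1.11 ± 0.08, adjusted p = 1.1e-14), from 94.3 ± 6.83 to 43.6 ± 1.81 CPM, and Hist1h2bc 1.72-fold (-0.78 ± 0.07). For reference, 2-day WT cultures of that age had 49.5 ± 3.07 CPM of Hist1h1c, 35.3 ± 1.78 CPM of Hist1h2bc and 11.6 ± 0.586 CPM of Hist2h2be. Of the 23, 15 fell and none rose, where 60% of all genes changed, 30.5% upward and 29.5% downward (median -1.15 for members, -0.02 for all genes). All 4 tested H1 members, 2 of 3 H2A, 3 of 5 H2B, 1 of 4 H3 and 5 of 7 H4 members fell. The call for Hist3h2a (1.55-fold lower) was lost without WT replicate 4. For Hist1h4n and the other members named with it for the filter, a call here is a description.

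Replication and osteoclast genes differed at the same time. At 6 months 44 of 46 S phase genes were higher in KO (median 0.49), with Pcna 1.99-fold (0.99 ± 0.06) and Slbp 1.31-fold (0.39 ± 0.07, edgeR adjusted p = 2.0e-05) higher, and all 13 osteoclast markers lower (median -2.78). At 1 month 40 of 46 S phase genes and 12 of 13 osteoclast markers were lower in KO (medians -0.40 and -2.00), while Pcna was the 1 S phase gene called higher (1.14-fold, 0.19 ± 0.06), and Slbp fell 1.26-fold (-0.33 ± 0.07). Of 12 macrophage markers 11 were higher in KO at each age, and 1 lower at 6 months, with sums of 47066 to 50564 CPM in KO and 28856 to 31395 CPM in WT at 1 month, and 27748 to 28444 and 11514 to 11668 CPM at 6 months. Other cell types differed too. At 6 months the erythroid and platelet markers summed to 201 to 265 CPM in KO and 17.8 to 22.2 CPM in WT, neutrophil markers to 28.4 to 38.9 and 2.52 to 3.38 CPM, and stromal markers were lower in 8 of 10 (median -0.85). At 1 month neutrophil markers summed to 73.8 to 77.9 CPM in KO and 23.2 to 31.5 CPM in WT, and stromal markers were higher in 7 of 10 (0.37). Their part in the histone result was not tested, and genotype and the stage that the cultures had reached cannot be told apart. The difference between the 2 ages was tested itself, in the same model. It passed for 13 of the 23 members, where 48.6% of all genes passed, and was negative in each: -2.32 ± 0.16 for Hist2h2be and -1.59 ± 0.11 for Hist1h1c (log2).

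Set 519 offers further KO cultures of both ages. Its comparison with unprefixed WT cultures also crosses sets, so genotype and set cannot be told apart. Both comparisons of an age share the WT libraries with those above. At 1 month 14 of 23 members were higher in set 519 KO and none lower, where 57% of all genes changed, 27.2% being higher and 29.8% lower (median 1.31, all genes 0.01). Hist4h4, at 0.487 ± 0.22 against 0.162 ± 0.0757 CPM, passed the filter on low counts only through set 519, so a call for it is a description. Hist1h1c lay at 139, 119 and 120 CPM (2.46-fold higher than WT, 1.30 ± 0.08, edgeR adjusted p = 6.5e-16) and Hist1h2bc at 101, 83.7 and 86.9 CPM (2.37-fold, 1.24 ± 0.08). Every library of set 519 exceeded every WT library for both genes. Hist2h2be was 1.70-fold higher (0.77 ± 0.12, adjusted p = 2.3e-06), at 15.5 ± 2.01 CPM. Hist1h4n was 7.36-fold higher (2.88 ± 0.50), the H2A gene Hist1h2ad 5.78-fold (2.53 ± 0.40) and Hist2h3c2 5.66-fold (2.50 ± 0.30). Hist1h4n and Hist1h2ad did not reach the level the filter asks for in the WT libraries, so their calls are descriptions. The S phase list was lower in all 46 genes (median -1.71), osteoclast markers were higher in 9 of 13 and lower in 1 (1.06), and macrophage markers higher in 3 of 12 and lower in 7 (-0.49). Erythroid and platelet markers summed to 15.2 to 17.6 CPM, against 156 to 276 CPM in WT. Their part was not tested.

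At 6 months 4 members were higher and 2 lower in set 519 KO, a share of 26.1%, where 51.6% of all genes changed, 25.7% being higher and 25.9% lower (median 0.08, all genes -0.01). Hist1h1c was 1.42-fold higher (0.51 ± 0.07, edgeR adjusted p = 6.4e-07), Hist1h2bc 1.33-fold (0.41 ± 0.07) and Hist2h3c2 1.78-fold (0.83 ± 0.20). Hist2h2be was 1.72-fold lower (-0.78 ± 0.09, adjusted p = 5.7e-09), at 31.7, 32.0 and 32.5 CPM against 53.9, 53.2 and 57.9 CPM. In this gene the set 519 libraries lay between those of unprefixed KO and WT. Over the same comparison the S phase list was lower in 35 of 46 genes and higher in 3 (median -0.47), stromal markers were lower in 9 of 10 (-1.90), macrophage markers higher in 8 of 12 (0.74) and osteoclast markers higher in 7 of 13 and lower in 3 (0.53). The part of these in the histone values was not tested. The calls for Hist1h2be (1.61-fold lower) and Hist1h4h (1.70-fold higher) were lost without set 519 replicate 4, the first also without set 519 replicate 2 or WT replicate 4.

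**Figure D3:**
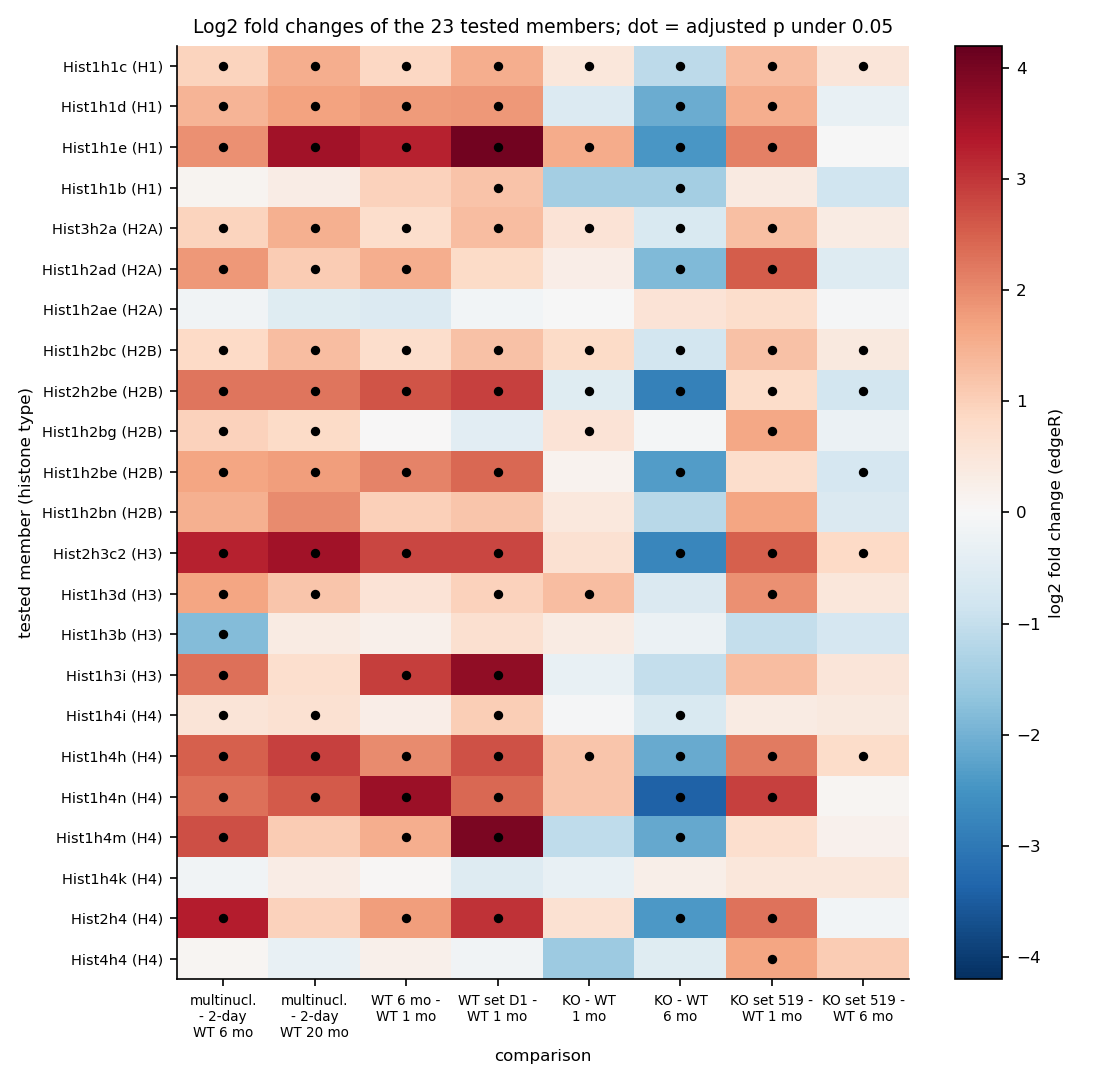
Log2 fold changes of the 23 tested members (rows, by histone type) in 8 comparisons (columns), red for higher and blue for lower in the first-named group, with a dot where the edgeR adjusted p is under 0.05. Calls are upward in the stage, WT age and set D1 columns except Hist1h3b at 6 months, and downward in the column of KO minus WT at 6 months.

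Age was compared within each genotype and stage. In multinucleated WT cultures 14 of 23 members were higher at 6 months than at 1 month and none lower, where 63.6% of all genes changed, 31.2% being higher and 32.5% lower (median 1.01, all genes 0.01). Hist2h2be was 6.23-fold higher (2.64 ± 0.09, edgeR adjusted p = 3.3e-22), Hist2h3c2 7.05-fold (2.82 ± 0.25) and Hist1h4n 12.1-fold (3.60 ± 0.39), while Hist1h1c and Hist1h2bc were 1.84-fold and 1.67-fold higher. Hist1h4n did not reach the level the filter asks for at 1 month, so its call is a description. Hist1h4i, at 5.31 ± 0.766 and 6.41 ± 0.274 CPM, was not called (edgeR adjusted p = 0.16). In the same comparison 45 of 46 S phase genes were lower and all 13 osteoclast markers higher (medians -0.78 and 2.66). Stromal markers were higher in 9 of 10 (1.46), and macrophage markers lower in 10 of 12 and higher in 1 (-1.42). Neutrophil sums were 23.2 to 31.5 CPM at 1 month and 2.52 to 3.38 CPM at 6 months, and erythroid and platelet sums 156 to 276 and 17.8 to 22.2 CPM. The part of these in the histone result was not tested.

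From 6 to 20 months the differences were small. Hist1h1c (1.18-fold, 0.24 ± 0.07, edgeR adjusted p = 0.024) and Hist2h2be (1.19-fold, 0.26 ± 0.08, adjusted p = 0.026) were higher in multinucleated 20-month WT cultures, 2 of 23 members where 14.3% of all genes changed, 7.39% being higher and 6.9% lower (median -0.00, all genes -0.01). Neither call held without 6-month replicate 3 or 20-month replicate 4. Hist1h1c also lost its call without 6-month replicate 4, and Hist2h2be without 6-month replicate 2 or 20-month replicate 1. Between these ages 22 of 46 S phase genes were lower (median -0.21) and stromal markers higher in 7 of 10 and lower in 1 (0.58). In 2-day cultures 3 members were lower at 20 months and none higher, where 18.8% of all genes changed, 7.5% being higher and 11.3% lower (median -0.15 for members, -0.02 for all genes). Hist1h2bc was 1.33-fold lower (-0.41 ± 0.08, adjusted p = 2.9e-04), at 33.7, 37.2 and 34.9 CPM at 6 months and 26.1, 27.9 and 25.6 CPM at 20 months, and Hist1h1c 1.28-fold (-0.35 ± 0.08). The third was Hist1h3b (5.46-fold lower, -2.45 ± 0.54), which passed the filter through the 6-month 2-day group and so had to be lower here. Stromal markers were lower in 7 of 10 (median -0.88) and osteoclast markers higher in 7 of 13 (0.29), and their part was not tested.

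KO cultures of 6 and 1 months were compared within each set. In unprefixed KO 5 members were lower at 6 months than at 1 month and 1 higher, where 37.5% of all genes changed, 19.7% being higher and 17.8% lower (median -0.47, all genes 0.01). Hist1h2bc was 1.78-fold lower (-0.83 ± 0.07, edgeR adjusted p = 2.3e-11) and Hist1h1c 1.63-fold lower (-0.71 ± 0.08). Hist2h2be was the 1 called higher (1.24-fold, adjusted p = 0.041), with overlapping libraries. Members were called mostly lower while all 13 osteoclast markers were higher (median 2.32), 26 of 28 genes of the G2 and M phase list were higher (0.46), 19 of 46 S phase genes were higher and 2 lower (0.13), and all 12 macrophage markers were lower (-0.62). This combination differs from the split of the groups by member sums given above, and the part of these lists was not tested. The call for Hist2h2be was lost with a replicate block (log2 fold change 0.31) and with relative log expression factors (log2 fold change 0.29). It was also lost without 1-month replicate 1 or 4 or 6-month replicate 2 or 3 (log2 fold change 0.19 without 1-month replicate 4). In set 519 2 members were higher and 2 lower, where 32.5% of all genes changed, 19.2% being higher and 13.2% lower (median 0.04, all genes 0.04). Hist2h2be was 2.13-fold higher (1.09 ± 0.11, adjusted p = 1.6e-09) and Hist2h3c2 2.22-fold (1.15 ± 0.23), while the H2B gene Hist1h2bg was 3.58-fold lower (-1.84 ± 0.27), from 8.78, 8.57 and 7.01 CPM to 2.44, 3.11 and 1.71 CPM, and Hist1h2ad 2.91-fold lower (-1.54 ± 0.42). Hist1h1c (0.09 ± 0.08) and Hist1h2bc (-0.09 ± 0.08) were not called there. There too all 13 osteoclast markers were higher (1.90), and 31 of 46 S phase genes were higher and 1 lower (0.38). The difference between the sets was not tested.

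Set D1 held the highest levels of several members. Against unprefixed 1-month WT, 16 of 23 were higher and none lower, where 74.5% of all genes changed, 37.5% being higher and 36.9% lower (median 1.28, all genes 0.03), a comparison that also crosses sex and set. Hist1h3i, at 0.706 ± 0.352 against 0.0477 ± 0.0826 CPM, passed the filter on low counts partly through set D1, so a call for it is a description. Hist1h1c lay at 144, 142 and 155 CPM (2.87-fold higher, 1.52 ± 0.07, edgeR adjusted p = 6.5e-19) and Hist2h2be at 62.9, 62.9 and 66.3 CPM (7.25-fold, 2.86 ± 0.09). Hist1h1e was 16.5-fold higher (4.04 ± 0.46), at 1.62 ± 0.192 against 0.0909 ± 0.0957 CPM, and Hist1h4m 15.6-fold (3.96 ± 0.36), at 4.76, 4.07 and 5.72 CPM against at most 0.381 CPM. Hist1h4m reached at most 1.73 CPM in any library outside set D1. Neither Hist1h1e nor Hist1h4m reached the level the filter asks for in the 1-month WT libraries, so their calls here are descriptions. The S phase list was lower in all 46 genes (median -2.19), with Pcna 4.33-fold and Slbp 2.91-fold (-1.54 ± 0.08, adjusted p = 1.1e-18) lower, and 12 of 13 osteoclast markers were higher (median 3.56). Stromal markers were higher in 9 of 10 (2.9), with sums of 4087 to 4484 CPM against 645 to 725 CPM, and macrophage markers lower in 7 of 12 and higher in 2 (-0.67). Their part was not tested.

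Genes that act on histone mRNA were called in both directions. The list of genes for histone mRNA 3′ end processing and decay (30 of 31 matched, all tested) had medians between -0.35 and 0.18 over the 12 comparisons. In the stage comparison at 6 months 6 rose and 14 fell, where 23.4% of all genes rose and 27.4% fell. In KO against WT at 6 months 7 rose and 15 fell, where 30.5% of all genes rose and 29.5% fell. Within it, Slbp ranged from 21.5 to 71.4 CPM over the libraries, and Npat and Casp8ap2, which act in histone gene transcription and processing, from 19.2 to 40.8 and from 16.1 to 50.7 CPM. Npat was 1.22-fold lower in multinucleated than in 2-day cultures at 6 months (-0.29 ± 0.08, edgeR adjusted p = 0.0039) and Casp8ap2 1.25-fold lower (-0.33 ± 0.08). Lsm10, a subunit of the particle that cleaves histone pre-mRNA, was 2.07-fold higher in KO at 6 months (1.05 ± 0.10, adjusted p = 9.6e-11), at 18.1 ± 0.182 against 8.72 ± 0.835 CPM.

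Replication-independent variants, which need no stem-loop, were mostly called in the direction opposite to the cluster genes in the 6-month comparisons of stage and genotype. Of 16 listed, 13 were tested. In multinucleated against 2-day cultures 1 rose and 8 fell at 6 months (median -0.32), and in KO against WT at 6 months 8 rose and 2 fell (median 0.37). Of all genes, 23.4% rose and 27.4% fell with stage at 6 months, and 30.5% rose and 29.5% fell in KO at 6 months. H3f3b, an H3 variant gene, was the most abundant at 473 CPM and kept between 385 and 632 CPM in every library. It fell 1.13-fold with stage at 6 months (-0.18 ± 0.06, edgeR adjusted p = 0.0071) and rose 1.11-fold in KO at 6 months (0.15 ± 0.06, adjusted p = 0.018). The linker variant H1f0, known from non-dividing cells, was called in the other direction. It rose 1.42-fold with stage at 6 months (0.51 ± 0.09) and 1.75-fold at 20 months (0.81 ± 0.09), and fell 1.66-fold in KO at 6 months (-0.73 ± 0.09), from 50.2 ± 5.76 to 30.3 ± 0.796 CPM. Histone chaperones fell in 17 and rose in 1 of 23 with stage at 6 months (median -0.38).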

How the data were processed

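The authors deposited raw gene counts, 1 file per library. Per the file headers, featureCounts 1.6.0 assigned STAR-sorted read pairs to exons, grouped by gene, of the Ensembl 88 annotation (GRCm38). The submitters' processing notes name HTSeq and mm10 instead. No strand or multimapping option is recorded, so overlapping antisense genes cannot be told apart and near-identical copies lose reads. The STAR version is not given in the sources used here. Symbols were matched for 99.56% of 50686 genes. The quasi-likelihood test of edgeR 4.0.16 (R 4.3.3, limma 3.58.1) was run after TMM scaling. All 30 libraries entered a model with a mean for each group, over the 15310 genes that filterByExpr kept (35376 removed). p-values were Benjamini-Hochberg adjusted over all tested genes, with a threshold of 0.05. CPM and RPKM are TMM-scaled, and values are mean ± SD (n = 3). The SE of a log2 fold change is approximate: its absolute value divided by the square root of the F statistic. Counts of every pair of replicates differed beyond sampling noise (chi-square per degree of freedom 1.28 to 22.3). DESeq2 1.42.0, other scalings, filters, a replicate block and each library left out were tried. The edgeR procedure was tested on simulated data. The members and gene lists were chosen with earlier results of these data known. Named members were the 8 with the highest mean CPM, the 3 largest called folds in each comparison with at least 1 CPM in a group, and the top member of each histone type. Of the listed genes, Slbp, Npat, Casp8ap2, H3f3b and Pcna were always eligible. Lsm10, H1f0 and the members named for a count of 0, a gene pair or a missing call were named after their values were seen.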

Additional observations from a re-analysis of the deposited data

Results flagged for a closer look

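Effects were compared between conditions by contrasts of contrasts in the same edgeR model, added after the data were seen. The effect of stage (multinucleated minus 2-day) was larger at 20 than at 6 months for Hist1h2bc by 0.45 ± 0.11 on the log2 scale (adjusted p = 0.0032) and for Hist1h1c by 0.59 ± 0.11 (adjusted p = 1.7e-04), 2 of 23 members where 12.4% of all genes passed.

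The effect of KO was lower at 6 months than at 1 month in unprefixed cultures for 13 of 23 members, where 48.6% of all genes passed. For the Hist2 genes the log2 difference was -2.32 for Hist2h2be, -3.37 for Hist2h3c2 and -3.04 for Hist2h4. For H1 genes it was -1.59 for Hist1h1c and -4.0 for Hist1h1e. It was -1.57 for Hist1h2bc and -2.48 for Hist1h2be among H2B genes, and -4.55 for Hist1h4n and -3.29 for Hist1h4h among H4 genes. It was -1.23 for Hist3h2a, -2.13 for Hist1h2ad and -1.91 for Hist1h3d. Hist1h1d, outside the rule for named members, passed at -1.50. Hist2h4, Hist1h1e, Hist1h4n and Hist1h2ad missed the level the filter asks for in KO and 1-month WT, so their differences are descriptions. The edgeR adjusted p ranged from 2.0e-14 (Hist1h2bc) to 0.031 (Hist1h1d). In Hist1h1c the effect of KO was 0.47 at 1 month and -1.11 at 6 months, and in Hist2h2be -0.52 and -2.84. Genotype and the stage reached by the cultures cannot be told apart at either age.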

How the results depend on the processing

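Alternatives were run for the counts of members called and the fold changes of named members, and none of these changed direction. They were not run for member sums, marker lists or differences between effects. For KO against WT at 1 month the count of members called fell from 8 to 5 with library totals in place of TMM and to 4 with the 2 compared groups alone, where fewer members were tested (11). For 20 against 6 months in multinucleated WT it was 1 in place of 2 with a replicate block. The labels do not say whether replicate numbers pair the samples. Correlations of deviations from group means between same-numbered libraries ran from -0.0808 to 0.261. With so few shared numbers per comparison, they cannot exclude pairing. The replicate block left the other counts within 1.5 times, for example 18 at 6 months for stage. Without the filter on low counts 30 of 57 members differed across groups, where 52.1% of all genes did, and without sets 519 and D1 18 of 19 did.

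With each library left out in turn, the count was 21 to 25 across groups, 18 to 20 and 12 to 14 for stage at 6 and 20 months, 4 to 8 and 14 to 16 for KO against WT at 1 and 6 months, 13 to 15 and 4 to 6 for set 519 against WT, 12 to 15 for WT 6 against 1 month, 0 to 2 and 3 to 4 for 20 against 6 months in multinucleated and 2-day cultures, 4 to 8 and 4 to 5 for KO 6 against 1 month in the unprefixed and 519 sets, and 16 to 19 for set D1. Leaving out a library also changes which members pass the filter. Of the fold changes of named members, 1319 values kept their call, 39 lost it and 9 gained one. The 42 members not tested had 0 to 137 counts in all. Low depth, shared sequence and overlapping genes were not separated as limits on these.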
